A study of Arabidopsis thaliana with 28 samples.

Results

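How the transcript response of Arabidopsis thaliana roots to 1% oxygen grew between 0.5 h and 2 h was measured as a difference of differences on log2(signal + 6). For each gene, the difference between 1% oxygen and normal air (21%) after 0.5 h was subtracted from the same difference after 2 h, and the result is called the growth of the response. The arrays were chosen by their titles, and no measured value entered that choice. They were 10 of the 28 arrays of the series, with 2 arrays of 1% oxygen for 2 h (letters E and F), 3 of normal air for 2 h (D, E and F), 2 of 1% oxygen for 0.5 h (D and F) and 3 of normal air for 0.5 h (C, F and G). Letter F is present in all 4 groups. A positive growth means a larger response at 2 h.

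All groups were roots of seedlings whose ecotype is given as col2, raised on upright agar plates with sucrose. The control roots in normal air were kept in darkness under a stream of premixed gas just as the roots at 1% oxygen were, so darkness and the gas stream are shared by all 10 arrays. Total RNA was labelled with biotin and each sample was read on 1 array of 22810 probe sets. The values are array signals (intensities) that the authors scaled to a common mean.

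When oxygen runs short, mitochondrial respiration slows and roots make ATP by glycolysis, while lactate and ethanol fermentation regenerate the NAD+ that glycolysis needs. In Arabidopsis, transcription factors of the group VII ethylene response factors are degraded in the presence of oxygen, and when oxygen falls they persist and switch on a set of core hypoxia genes. Some products of that set feed fermentation, and others, such as HRA1, restrain the response.

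The medians of the 10 arrays lay between 34.2 and 43.2, and replicate arrays correlated with r of 0.9566 to 0.9854 across probe sets. The annotation names 1 gene for 13513 probe sets, which stand for 13356 genes, and the counts below are of those genes. Nothing in the labels says that arrays with different letters came from separate cultures, so p values measure the spread between these arrays, which may be technical. The roots were measured whole, so fewer cells of a type and less RNA per cell cannot be told apart. A gene counts as named below where a probe set names it alone, and other genes of a list were not analysed here by name, though some may lie among the 9233 other probe sets. Of 16 root marker genes 8 were named, with summed signals of 5524 to 5747 at 1% and 3602 to 7092 in air after 2 h, and 3539 to 7054 at 1% and 4768 to 6332 in air after 0.5 h. Among the 10 arrays, letter D occurs only in air after 2 h and at 1% after 0.5 h. Both of these groups are subtracted in the growth, so a shift shared by the letter D arrays would enter it.

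The growth of the response passed the threshold (adjusted p of 0.05 or less, limma with Benjamini-Hochberg adjustment) for 3 genes, all higher, which is 0.0225% of the genes tested. They were AT4G30380, which RefSeq also lists as the expansin-like EXLB2, AT4G17260, a lactate dehydrogenase, and AT1G20270, a prolyl 4-hydroxylase. No gene passed as lower by limma (0%), where the smallest adjusted p was 0.597. That count of 0 did not hold in fits with the replicate letter as a block, where some genes were lower. At an unadjusted p under 0.05, 164 genes had a higher and 133 a lower value. The 95% interval of the growth reached a median of 0.95 on the log2 scale to each side of the value over all genes tested. A growth under that size was thus mostly not detectable even at an unadjusted p of 0.05. The adjusted threshold asked for more: AT5G42200, with a growth of 2.05, did not pass it (adjusted p = 0.731 by limma).

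AT4G30380 has its expansin-like name as a RefSeq synonym only, and what its product does was not measured here. Its signal was 74.1 (E) and 58.9 (F) at 1% after 2 h, against 0.513, 0.347 and 0.331 in air (D, E and F). After 0.5 h it was 1.11 (D) and 0.779 (F) at 1%, against 0.632, 0.501 and 0.484 in air (C, F and G). Only the arrays of 1% oxygen for 2 h rose above the pseudocount of 6, and the signals of all other 8 arrays were so dim that their order is not read. The growth was 3.41 ± 0.239 (SE; adjusted p = 8.35e-08 by limma). The response was 3.49 at 2 h and 0.09 at 0.5 h (95% interval -0.27 to 0.44). The call held with any of the 10 arrays left out (3.26 to 3.56). Its size depended on the pseudocount, with a growth of 4.90 at a pseudocount of 1.5 and 1.86 at 24, because the air signals lie below all of them.

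AT4G17260 encodes lactate dehydrogenase, which reduces pyruvate to lactate. Its signal was 812.4 (E) and 853.4 (F) at 1% after 2 h, against 141.0, 135.4 and 134.3 in air. After 0.5 h it was 287.8 (D) and 202.8 (F) at 1%, against 138.6, 144.3 and 115.9 in air. The arrays at 1% lay above those in air at both durations, and the air arrays of both durations lay close together. The growth was 1.71 ± 0.28 (SE; adjusted p = 0.0374 by limma), from a response of 2.55 at 2 h and 0.84 at 0.5 h (95% interval 0.43 to 1.25). The 0.5 h response had an unadjusted p of 0.000397 and an adjusted p of 0.383. The call on the growth held without the 1% array D or the air array G of 0.5 h, and was lost without any other array of the 10, with a growth between 1.47 and 1.96.

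AT1G20270 is a prolyl 4-hydroxylase, an enzyme class that uses molecular oxygen to hydroxylate proline in cell wall proteins. Its signal was 147.2 (E) and 124.8 (F) at 1% after 2 h, against 35.6, 44.6 and 36.4 in air. After 0.5 h it was 34.1 (D) and 42.5 (F) at 1%, against 35.0, 38.9 and 43.1 in air. Only the arrays of 1% oxygen for 2 h stood apart, and at 0.5 h the arrays of the groups overlapped. The growth was 1.69 ± 0.29 (SE; adjusted p = 0.0473 by limma), from a response of 1.66 at 2 h and -0.03 at 0.5 h (95% interval -0.45 to 0.40). The call is close to the threshold: it was lost when any array of the 10 was left out, with adjusted p values of 0.0879 to 0.403 and a growth of 1.55 to 1.83.

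With all 4 arrays of letter F left out, a setting added after the data were seen, AT4G30380 kept a growth of 3.52 (adjusted p = 0.000229), while AT4G17260 had 1.36 (adjusted p = 1) and AT1G20270 1.90 (adjusted p = 0.862). From letter F alone, with 1 array a group and no test, the growth was 3.30 for AT4G30380, 2.14 for AT4G17260 and 1.51 for AT1G20270.

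**Figure D1:**
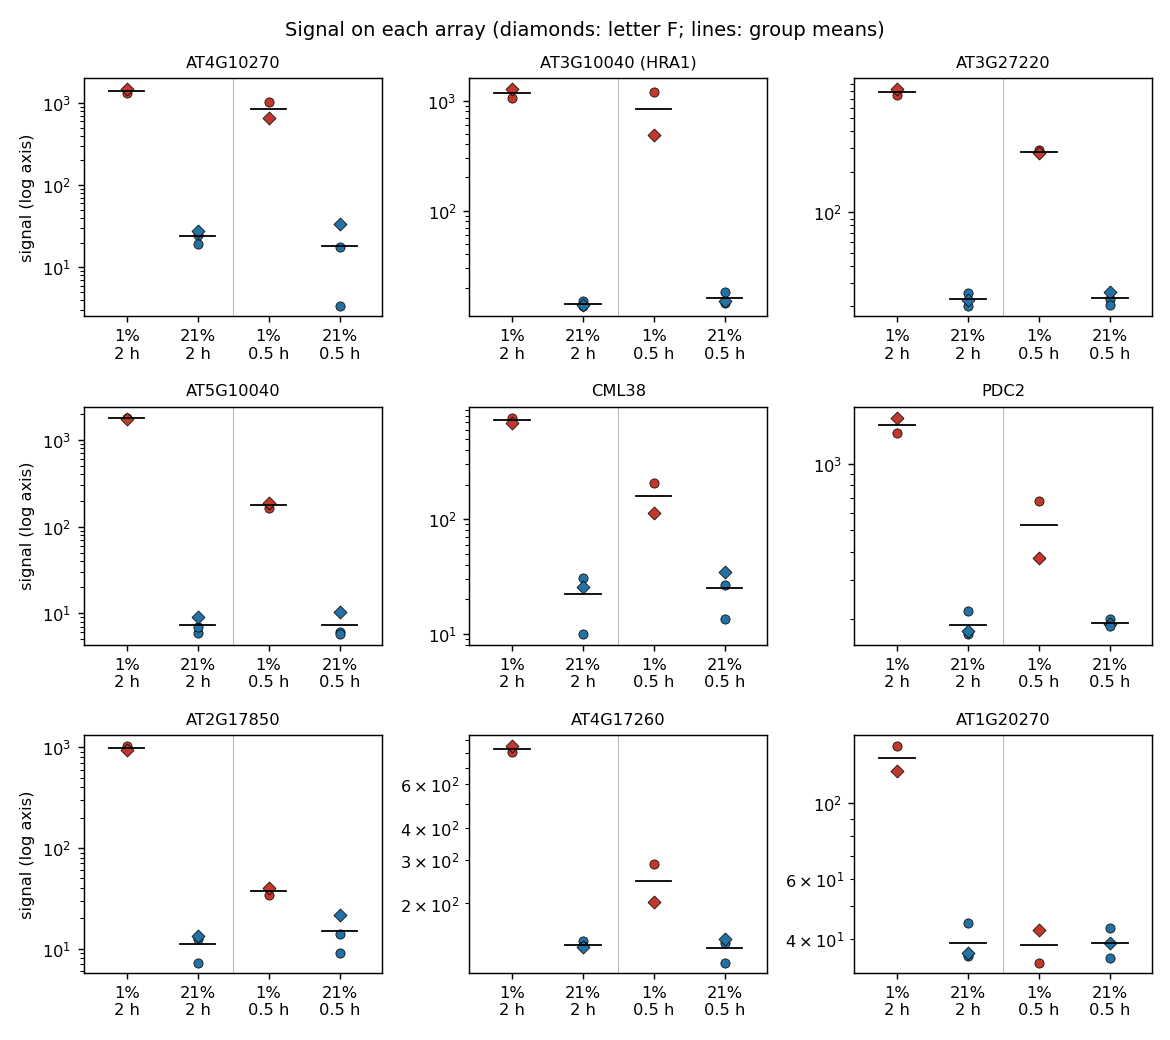
Signal (log axis) of 9 genes on each of the 10 arrays, with 1% oxygen in red left of 21% in blue, first after 2 h and then after 0.5 h; points are arrays, diamonds mark letter F and lines are group means. The panels run from AT4G10270, with 1039 and 650.4 at 1% already after 0.5 h, to AT1G20270, whose 0.5 h groups overlap.

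The growth is built on the responses at each duration. After 2 h, 46 genes were higher at 1% oxygen than in air (0.344% of the genes tested) and none was lower by limma (0%), with 213 genes lower at an unadjusted p under 0.05. The count of 0 lower genes at 2 h is at the edge of the threshold (smallest adjusted p = 0.0623), and 2 genes were lower with quantile normalization, with the dimmest 40% of probe sets left out or with the 10 arrays alone. With the letter as a replicate block 145 genes were higher and 79 lower at 2 h, so the count of 0 lower did not hold in that fit. Same-letter arrays deviated together in only part of the pairs at 2 h. After 0.5 h, 7 genes were higher (0.0524%) and none was lower by limma (0%), with 85 lower at an unadjusted p under 0.05. At 0.5 h arrays of the same letter deviated together, and with the letter as a replicate block 3 genes were higher (AT3G27220, AT3G23170 and AT5G44730), or 1 higher (AT3G23170) and 1 lower with a block for each duration. These durations share no arrays, but they share the estimate of each gene's spread. The 7 early genes were all among the 46, which is 7 of 7 of the shorter list and 7 of 46 of the longer. Genes past the threshold at 0.5 h are called early here. The label depends on the spread of a gene as well as on its response, so it does not rank the genes by timing. AT5G44730 is early with a 0.5 h response of 2.01, and AT5G10040 with 3.78 is not (adjusted p = 0.133 by limma). Genes past it at 2 h and in the growth, with an unadjusted p above 0.05 at 0.5 h, are called starting after 0.5 h. By these rules 7 genes were early, 2 (AT4G30380 and AT1G20270) started after 0.5 h, and the other 37 of the 46 could be placed in neither class. These classes come from the fit without a block. With the letter as a replicate block AT4G10270, AT3G10040, AT4G33560 and AT4G24110 did not pass at 0.5 h.

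**Figure D2:**
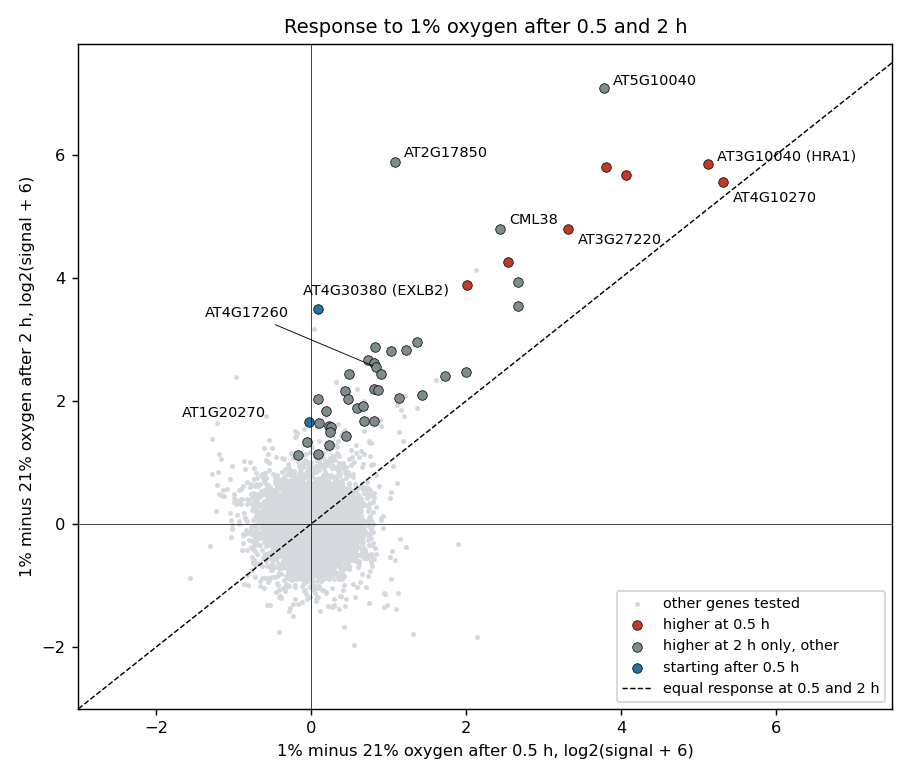
Response to 1% oxygen (1% minus 21%, log2(signal + 6)) after 0.5 h on the horizontal axis and after 2 h on the vertical axis for each gene tested; the 7 early genes are red, the 2 called starting after 0.5 h blue and the other 37 of the 46 dark grey. AT4G10270 (5.32) and AT3G10040 (5.12) lie farthest to the right, near the dashed line of equal responses, and AT4G30380 and AT1G20270 lie near 0 on the horizontal axis.

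Among the early genes, AT4G10270, of the wound-responsive protein family, had nearly its whole 2 h response by 0.5 h. Its signal was 1316 (E) and 1471 (F) at 1% after 2 h, against 24.9, 19.5 and 27.8 in air, and 1039 (D) and 650.4 (F) at 1% after 0.5 h, against 17.8, 33.9 and 3.42 in air. The 1% arrays of both durations lay far above every air array. The response was 5.55 at 2 h and 5.32 at 0.5 h (adjusted p = 0.00237 by limma), so 95.9% of the log2 response was present at 0.5 h. The growth of 0.23 had a 95% interval of -1.94 to 2.40, so these arrays do not fix its direction.

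AT3G10040, which RefSeq also lists as HRA1 (HYPOXIA RESPONSE ATTENUATOR1), is the transcription factor gene that restrains the low-oxygen response. Its signal was 1057 (E) and 1266 (F) at 1% after 2 h, against 15.1, 13.7 and 13.9 in air, and 1184 (D) and 485.3 (F) at 1% after 0.5 h, against 14.5, 15.2 and 18.3 in air. The 0.5 h array D was within the range of the 2 h arrays and the 0.5 h array F was below it. The response was 5.85 at 2 h and 5.12 at 0.5 h (adjusted p = 0.00237 by limma), with 87.6% present at 0.5 h and a growth of 0.72 (95% interval -1.35 to 2.79).

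AT3G27220, a kelch repeat protein gene, was early and had replicate arrays close together. Its signal was 741.7 (E) and 825.1 (F) at 1% after 2 h, against 24.98, 20.2 and 22.4 in air, and 289.2 (D) and 275.7 (F) at 1% after 0.5 h, against 22.6, 25.6 and 20.6 in air. The 1% arrays of 2 h lay above those of 0.5 h, and these above all air arrays. The response was 4.79 at 2 h and 3.32 at 0.5 h (adjusted p = 0.000187 by limma), with 69.3% present at 0.5 h. Its growth of 1.47 ± 0.513 (SE) had an unadjusted p of 0.00954 and an adjusted p of 1. It was the only one of the 7 called at 0.5 h whichever of the 10 arrays was left out.

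The other early genes had from 51.8% to 71.7% of their 2 h log2 response at 0.5 h. AT4G33560, also of the wound-responsive family, had 697.4 and 628.4 at 1% after 2 h, against 7.52, 4.58 and 6.09 in air, and 192.1 and 159.4 at 1% after 0.5 h, against 2.21, 17.3 and 5.28 in air. AT5G44730, a haloacid dehalogenase-like hydrolase gene, had 998.4 and 1087 at 1% after 2 h, against 72.4, 67.9 and 55.1 in air, and 336.6 and 282.6 at 1% after 0.5 h, against 79.5, 79.4 and 58.8 in air. In both genes the groups did not overlap at either duration, and the growth was 1.99 (adjusted p = 1) and 1.88 (adjusted p = 0.411), in that order. AT3G23170 had a response of 4.26 at 2 h and 2.54 at 0.5 h (59.7% present), and AT4G24110 one of 5.67 at 2 h and 4.06 at 0.5 h (71.7% present). None of the 7 early genes passed the test of the growth by limma, and 4 of them had an unadjusted p under 0.05 in it. In fits with the letter as a replicate block, AT5G44730 (lowest adjusted p = 0.00544 by limma) and AT3G23170 (0.0334) did pass.

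The calls at 0.5 h depend on which arrays are kept. Leaving out array D or array F of 1% oxygen at 0.5 h leaves 1 array in that group. The 1% array D was above the 1% array F for 6 of the 7 early genes and for 33 of the 46 genes called at 2 h, with a median difference of 0.30 over the 46 and 0.07 over all genes on the log2 scale. Without array D 1 gene passed at 0.5 h and without array F 6 did, and with all arrays of letter F left out none did by limma (176 genes higher at an unadjusted p under 0.05). ARL, an ARGOS-like gene with a part in the growth of organs, shows the gap at its widest among the genes named here. It had 522.5 (E) and 691.8 (F) at 1% after 2 h, against 76.8, 19.0 and 24.8 in air, and 687.3 (D) and 96.9 (F) at 1% after 0.5 h, against 72.2, 32.9 and 18.1 in air. Its growth of 1.25 had a 95% interval crossing 0 (unadjusted p = 0.246), and it was 2.63 without the 1% array D and -0.13 without the 1% array F of 0.5 h.

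The 46 genes called at 2 h were chosen on the 2 h response, which shares no arrays with the 0.5 h response. The model pools the spread of each gene over all arrays of the series, so the 0.5 h p values are not separate from that choice. Choosing genes by their 2 h response also tends to raise that response, and so to lower the share of it present at 0.5 h. Both 1% arrays of 0.5 h lay above all 3 air arrays for 30 of the 46, against 8.9% of all genes tested, and the groups overlapped for the other 16. At 0.5 h 27 of the 46 were higher with an unadjusted p under 0.05, against 1.12% of all genes. Their median 0.5 h response was 0.82 (0.02 over all genes), beside a median 2 h response of 2.42. The share of the 2 h log2 response present at 0.5 h had a median of 35.8%, with 15 genes at 50% or more, 24 from 10% to 50% and 7 under 10%. A negative share means that the 0.5 h response was below 0.

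**Figure D3:**
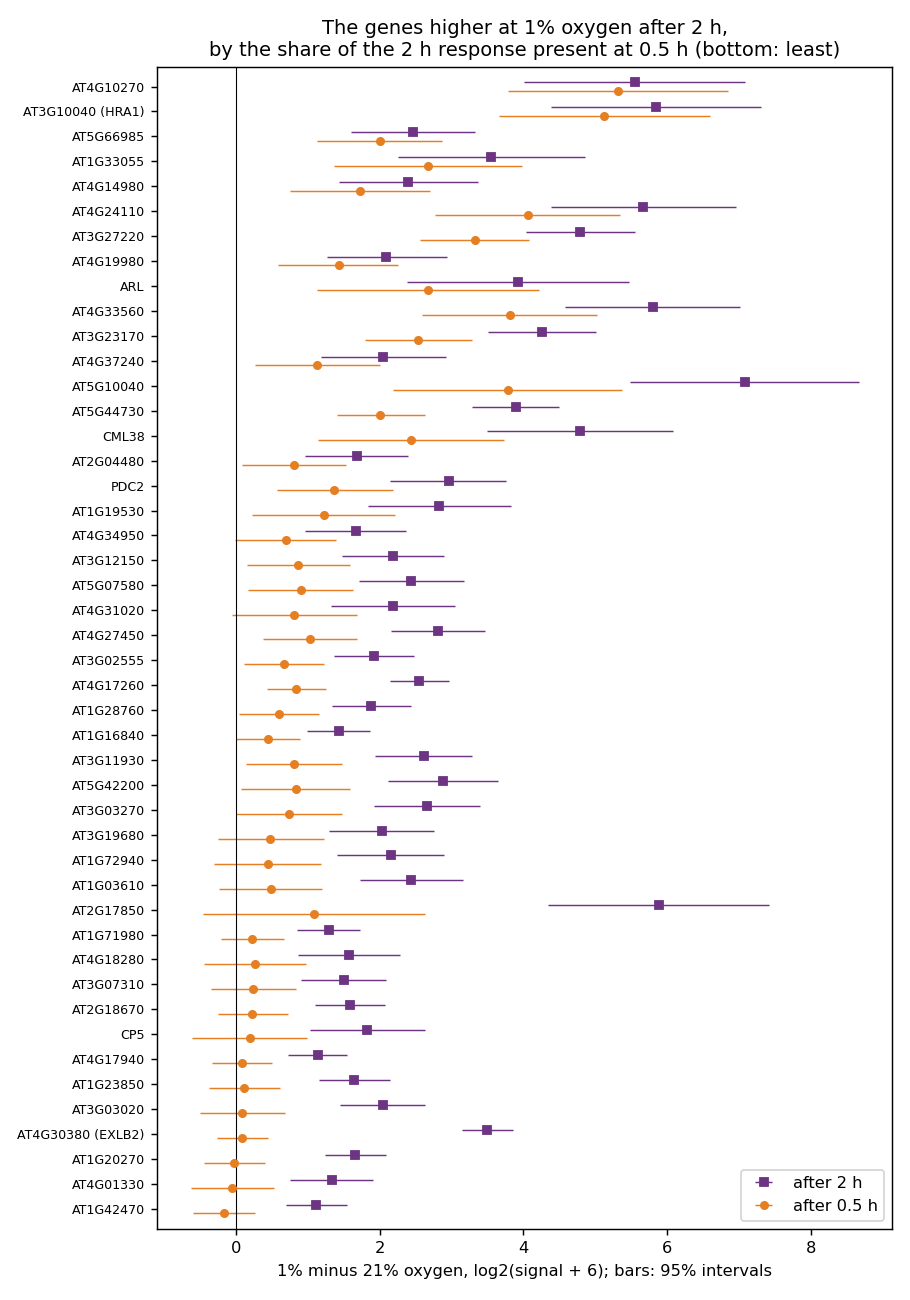
Response to 1% oxygen (1% minus 21%, log2(signal + 6)) after 2 h (purple squares) and after 0.5 h (orange circles) for the 46 genes higher at 2 h, with 95% intervals of the model, ordered by the share of the 2 h response present at 0.5 h. The share runs from 95.9% for AT4G10270 at the top to -15.3% for AT1G42470 at the bottom.

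Beside AT4G10270 and AT3G10040, the genes with most of their response at 0.5 h were AT5G66985 (81.0%), AT1G33055 (75.2%) and AT4G14980 (71.9%). None of these 3 passed the adjusted threshold at 0.5 h. AT5G66985 had 1820 and 1902 at 1% after 2 h, against 358.6, 318.2 and 319.9 in air, and 1250 and 846.2 at 1% after 0.5 h, against 319.6, 295.5 and 171.1 in air. Its groups did not overlap at either duration, and its 0.5 h response of 2.00 had an unadjusted p of 0.000109 and an adjusted p of 0.133.

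In the middle of the range were AT5G10040 (53.4%), CML38 (50.9%) and PDC2 (46.4%). AT5G10040, a core hypoxia gene whose product has no known function, had 1807 and 1767 at 1% after 2 h, against 5.98, 6.88 and 9.13 in air, and 163.8 and 187.4 at 1% after 0.5 h, against 6.08, 10.3 and 5.73 in air. Its signal at 1% after 0.5 h was thus far from the 2 h signal although more than 50% of the log2 response was present. Its growth of 3.30 had an unadjusted p of 0.00631 and an adjusted p of 1. CML38, a calmodulin-like calcium sensor gene, had 766.0 and 685.0 at 1% after 2 h, against 9.93, 30.7 and 25.6 in air, and 206.5 and 113.9 at 1% after 0.5 h, against 13.4, 34.8 and 26.4 in air. The 0.5 h arrays at 1% lay between the 2 h arrays and air, and the growth was 2.35 (adjusted p = 1).

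PDC2 encodes pyruvate decarboxylase, the entry enzyme of ethanol fermentation. It had 1372 and 1614 at 1% after 2 h, against 170.2, 217.4 and 175.0 in air, and 682.6 (D) and 374.5 (F) at 1% after 0.5 h, against 200.1, 189.8 and 185.6 in air. The groups did not overlap at either duration. Its growth of 1.58 ± 0.547 (SE) had an unadjusted p of 0.0089 and an adjusted p of 1 by limma.

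The gene with the largest growth of all those named, AT2G17850, which encodes a rhodanese-like protein, did not pass the test. It had 1026 and 937.0 at 1% after 2 h, against 12.4, 7.25 and 13.2 in air, and 33.97 and 39.96 at 1% after 0.5 h, against 13.8, 21.8 and 9.001 in air. The 0.5 h arrays did not overlap, but the response then was 1.08 with a 95% interval of -0.46 to 2.63, beside 5.88 at 2 h (18.5% present). The growth was 4.79 ± 1.05 (SE; unadjusted p = 0.000181, adjusted p = 0.411 by limma), 4.57 to 5.01 with single arrays left out and 4.89 from letter F alone. In a fit of the 10 arrays alone AT2G17850 passed (adjusted p = 0.00292), as did AT5G10040 (adjusted p = 0.00375).

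The 7 genes with under 10% of their 2 h response at 0.5 h were AT3G03020 (4.32%), AT1G23850 (6.85%), AT4G17940 (7.72%), AT4G01330 (-3.53%), AT1G42470 (-15.3%), AT4G30380 (2.48%) and AT1G20270 (-1.53%). AT3G03020 had 60.8 and 61.1 at 1% after 2 h, against 8.53, 12.0 and 10.4 in air, and 18.4 and 12.4 at 1% after 0.5 h, against 15.5, 14.8 and 11.6 in air. AT1G23850 had 245.4 and 348.3 at 1% after 2 h, against 93.4, 81.7 and 94.1 in air, and 122.7 and 75.9 at 1% after 0.5 h, against 99.0, 76.5 and 93.0 in air. In both genes only the arrays of 1% oxygen for 2 h stood apart, as in AT1G20270. Their growth was 1.95 (adjusted p = 0.291) for AT3G03020 and 1.53 (adjusted p = 0.411) for AT1G23850, so neither passed. The class of AT3G03020 turns on the pseudocount: at 24 its growth of 1.26 passed (adjusted p = 0.0339). The growth of AT1G23850 passed in 1 other setting, with the letter as a replicate block (adjusted p = 0.0182 by limma). The upper 95% bounds of the 0.5 h response were 0.68 for AT3G03020 and 0.61 for AT1G23850.

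Within each oxygen level, the change from 0.5 h to 2 h shows on which side the growth arose. At 1% oxygen 11 genes were higher after 2 h than after 0.5 h (0.0824% of the genes tested) and none was lower by limma (0%), with 250 genes lower at an unadjusted p under 0.05. In air none was higher or lower by limma (0%), with 119 genes higher and 121 lower at an unadjusted p under 0.05. The 11 were AT2G17850 (4.52), AT4G30380 (3.38), AT3G03270 (2.43), AT3G11930 (2.17), AT5G42200 (2.17), AT4G17260 (1.76), AT5G44730 (1.74), AT1G20270 (1.68), AT3G03020 (1.66), AT1G23850 (1.54) and AT4G17940 (1.17), with the 2 h minus 0.5 h value on the log2 scale in brackets. The same value in air was between -0.29 (AT3G03020) and 0.51 (AT3G03270) for these genes. Over the 46 genes called at 2 h it ran from 0.60 to 4.52 at 1% and from -0.57 to 0.52 in air, with medians of 1.38 and -0.02. For some genes part of the growth lay on the air side. AT1G42470 had 0.74 at 1% and -0.55 in air, and AT3G07310 had 0.69 and -0.57, though neither change in air passed the threshold. The 46 were chosen on arrays that enter these values. In place of the 11, the count was 3 without array E of 1% at 2 h or without either 1% array of 0.5 h, 6 without any of the 3 air arrays of 2 h or the air array F of 0.5 h, and 9 without any other.

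**Figure D4:**
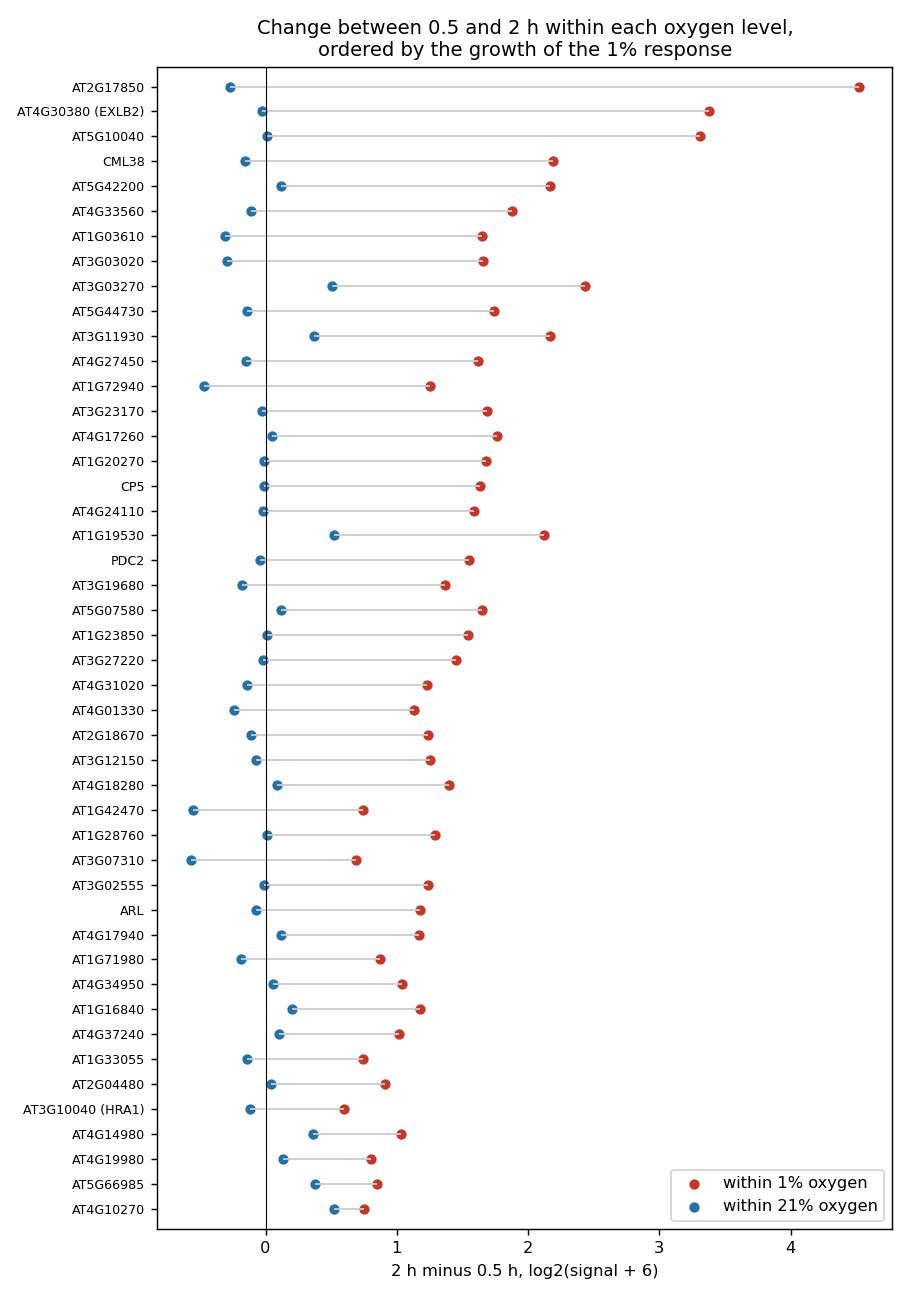
Change between 0.5 h and 2 h (2 h minus 0.5 h, log2(signal + 6)) within 1% oxygen (red) and within 21% oxygen (blue) for the 46 genes higher at 1% after 2 h, ordered by the growth of the response, which is the length of the grey line. The blue points lie between -0.57 and 0.52, and the red points between 0.60 and 4.52.

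AT3G03270 and AT3G11930 are universal stress protein genes, a family of small proteins that bind nucleotides and are induced by many stresses. AT3G03270 had 1808 and 1658 at 1% after 2 h, against 204.3, 318.7 and 297.3 in air, and 283.8 and 351.6 at 1% after 0.5 h, against 167.7, 306.3 and 127.2 in air. Its 0.5 h groups overlapped. AT3G11930 had 2413 and 2407 at 1% after 2 h, against 263.4, 488.4 and 455.5 in air, and 499.3 and 561.8 at 1% after 0.5 h, against 292.5, 473.8 and 192.9 in air. Its 0.5 h groups did not overlap, with a narrow gap to air array F. Their growth was 1.93 (adjusted p = 0.772) and 1.80 (adjusted p = 0.731), in that order.

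The fixed gene lists set these genes beside the rest of their pathways. Of the core hypoxia list 26 of 52 genes were named, of which 1 passed in the growth (AT4G17260), 7 rose at 0.5 h and 20 rose at 2 h, against 0.0225%, 0.0524% and 0.344% of all genes tested. The median growth over the 26 was 1.66, beside -0.05 over all genes, and the median response was 3.26 at 2 h and 1.81 at 0.5 h. The list was drawn up from known hypoxia genes with earlier results of these data known, so its counts are not independent evidence of its direction, and the median describes those 26 only. The growth of its members ran from 0.23 for AT4G10270 to 4.79 for AT2G17850. AT4G17260, PDC2, AT4G10270, AT4G33560, AT3G03270, CML38 and AT3G10040 also stand in other lists below, so their calls are counted again there. The shares and the median over all genes given here apply to those lists too.

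Of 11 fermentation genes 3 were named, AT4G17260, PDC2 and ALDH2C4, an aldehyde dehydrogenase gene, and the other 8 have no value here. The median growth of the 3 was 1.58 (-0.05 over all genes), with 1 past the threshold in the growth and 2 at 2 h. The shares of all genes tested were 0.0225% and 0.344%, in that order. The next list holds the steps upstream of fermentation. Of 36 genes of sucrose breakdown and glycolysis 9 were named and 0 passed in the growth or at either duration by limma, with a median growth of -0.10. Their growth lay between -0.41 (ENOC, an enolase gene) and 0.45 (AT5G42740, a glucose-6-phosphate isomerase gene), and none of the 9 had an unadjusted p under 0.05 in any of the 3 comparisons.

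Of 12 prolyl 4-hydroxylase genes 8 were named, and AT1G20270 alone passed in the growth and at 2 h. The median growth of the 8 was 0.45. AT4G33910 came next by p, with a growth of 0.79 (unadjusted p = 0.0215, adjusted p = 1), from 170.4 and 170.7 at 1% after 2 h, against 108.2, 151.3 and 136.4 in air, and 98.0 and 110.9 at 1% after 0.5 h, against 122.7, 147.5 and 158.4 in air. Its 1% arrays were above air at 2 h and below air at 0.5 h, without overlap, and neither response passed the threshold.

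Of 37 genes on the expansin list 18 were named, with AT4G30380 alone past the threshold in the growth and a median growth of -0.28. The other 17 ran from -1.02 (EXLA1) to 0.23 (EXPA4), and none passed at either duration. Of the 20 universal stress protein genes, all named, 0 passed in the growth or at 0.5 h by limma (2 and 1 with an unadjusted p under 0.05) and 2 rose at 2 h (AT3G03270 and AT3G11930), with a median growth of -0.06. Of the wound-responsive family 5 of 7 were named, and AT4G10270 and AT4G33560 rose at both durations while 0 passed in the growth by limma (1 with an unadjusted p under 0.05).

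Of 18 oxygen sensing and group VII factor genes 2 were named, AT3G10040 and AT2G41980, the gene of a SINA-like ubiquitin ligase. AT2G41980 had a growth of 0.10 (unadjusted p = 0.824), with signals of 28.7 and 30.0 at 1% and 26.5 to 38.7 in air after 2 h, and 25.3 and 27.2 at 1% and 26.2 to 36.7 in air after 0.5 h. Of the other lists, early stress signalling had 5 named genes with 1 risen at 2 h (CML38). The lists of ethylene (2 named), heat shock proteins (7), carbon starvation (5), the circadian clock (1), alternative respiration (4), root hairs (2) and root markers (8) had 0 genes past the threshold in the growth or at either duration by limma. At an unadjusted p under 0.05 they held 1 gene of carbon starvation in the growth, none at 0.5 h, and 1 gene each of carbon starvation, alternative respiration and root hairs at 2 h. Of all genes tested 2.22% had such a p in the growth, 1.75% at 0.5 h and 3.56% at 2 h, in either direction. Of the lists of nitrate metabolism, aquaporins and endodermis 0 genes were named, so nothing is known of them here.

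Leaf photosynthesis markers, which roots should hold at low levels, were checked beside these results. Of 25 such genes 3 were named (RCA, LHCB4.1 and PRK), none of them at 0. Their summed signal was 352.1 to 604.0 at 1% and 201.4 to 388.9 in air after 2 h, and 286.3 to 322.1 at 1% and 323.8 to 538.2 in air after 0.5 h. Their median growth was 0.78, with 0 past the threshold in the growth or at either duration by limma and 0 with an unadjusted p under 0.05. The part of tissue other than root in the results was not tested.

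On the lower side, the 12 genes with the smallest unadjusted p in the growth had adjusted p values of 0.597 or more. In 5 of the 12 the mean signal was under the pseudocount in every group. Among the brighter ones, AT1G69580 had 26.7 and 26.5 at 1% after 2 h, against 102.1, 65.0 and 73.2 in air, and 103.0 and 80.2 at 1% after 0.5 h, against 82.0, 57.9 and 70.3 in air. Only the arrays of 1% oxygen for 2 h were low, and the growth was -1.74 ± 0.457 (SE; unadjusted p = 0.00111, adjusted p = 0.789 by limma). In fits with the letter as a replicate block AT1G69580 did pass as lower (lowest adjusted p = 0.0153 by limma). AT5G10830 had 228.3 and 232.8 at 1% after 2 h, against 440.1, 423.5 and 403.0 in air, and 431.4 and 432.5 at 1% after 0.5 h, against 339.4, 373.2 and 272.5 in air. Its 1% arrays were below air at 2 h and above air at 0.5 h, and the growth was -1.26 ± 0.319 (SE; adjusted p = 0.731 by limma).

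The same growth can be computed at 4% and 8% oxygen, each with 2 arrays a duration, against the same air arrays, so the 3 values of a gene are not independent and are given side by side only. AT4G30380 had a growth of 3.41 at 1%, 1.14 at 4% and 0.07 at 8%. Its signal at 4% was 12.1 and 5.33 after 2 h and 1.14 and 0.223 after 0.5 h, so 1 of the 2 arrays at 2 h was above the pseudocount. AT4G17260 had 1.71 at 1%, 0.78 at 4% and 0.44 at 8%, and AT1G20270 had 1.69, 0.57 and 0.17 in the same order of oxygen levels. AT2G17850 had 4.79 at 1%, 3.0 at 4% and 1.46 at 8%. AT4G10270 had 0.23 at 1%, -0.18 at 4% and 0.22 at 8%, and AT3G10040 had 0.72, 0.06 and -0.67. The differences between oxygen levels were not tested.

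**Figure D5:**
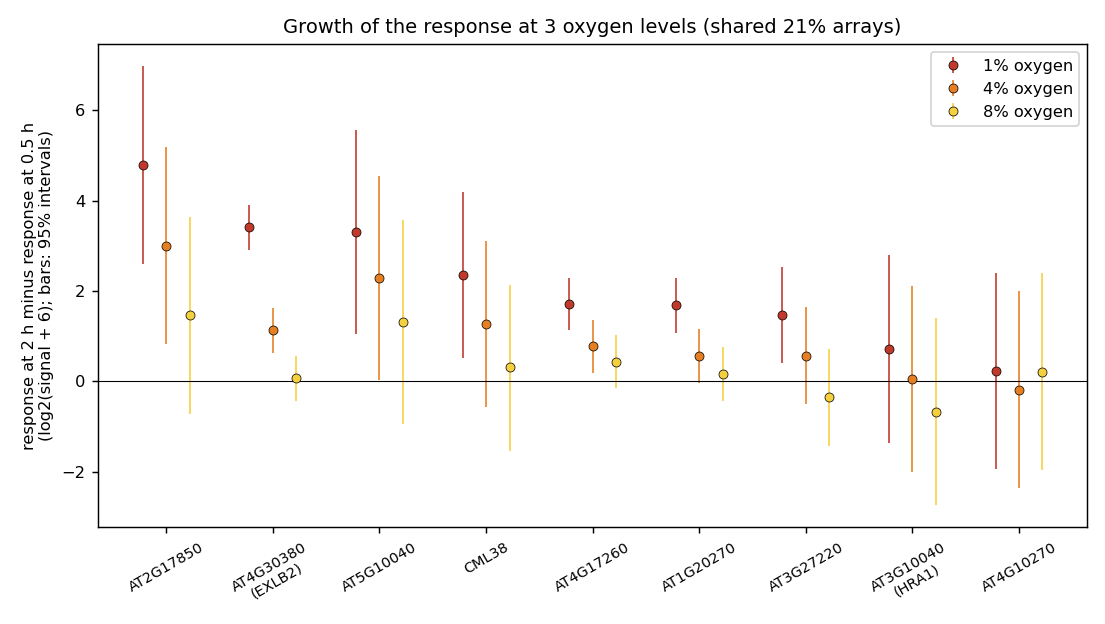
Growth of the response between 0.5 h and 2 h (response at 2 h minus response at 0.5 h, log2(signal + 6)) at 1%, 4% and 8% oxygen for 9 genes, with 95% intervals; the 3 oxygen levels share the 21% arrays. AT4G30380 has 3.41 at 1% and 0.07 at 8%, while AT4G10270 lies within 0.23 of 0 at all 3 levels.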

How the data were processed

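The deposited values are probe set signals, a linear intensity, made with MAS5 per the submitters' processing notes (version not given in the sources used here), and on every array the mean trimmed by 2% at each end is 100. That scaling was kept. log2(signal + 6) was tested with limma 3.58.1 (R 4.3.3) as 1 mean for each of the 12 groups of 28 arrays, with 16 residual degrees of freedom, variances moderated along a trend with intensity, and two-sided p values adjusted over the 13513 probe sets that name 1 gene, the brightest standing for a gene. The number of arrays limits the precision. Left out were 64 control probe sets, while 503 with several genes and 8730 with none entered a second model. The genes and lists were chosen with earlier results of these data known. Named were up to 15 genes past the threshold in the growth (per direction) and at each duration, the 12 with the smallest p in the growth per direction, up to 4 per list and all oxygen sensing genes. Others were named after their values were seen, to show the range of shares, and list members as the ends of a range. Alternatives were quantile normalization, centring on the median, pseudocounts of 1.5 and 24, the dimmest 40% of probe sets removed, no trend, the 10 arrays alone, all probe sets, a change of at least 2-fold, replicate letters as a block, and each array left out in turn. Samples were grouped by title, and the model was tested on simulated data.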

Additional observations from a re-analysis of the deposited data

Results flagged for a closer look

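For 3 genes the response to 1% oxygen differed between the durations by the test of the difference itself: AT4G30380 with a growth of 3.41, AT4G17260 with 1.71 and AT1G20270 with 1.69 on the log2 scale, each a larger response after 2 h than after 0.5 h. In data outside the named genes, 1 probe set without a named gene passed the same test when all probe sets were tested together. Its signal was 356.4 and 376.2 at 1% after 2 h, against 122.6, 132.3 and 115.2 in air, and 134.4 and 137.2 at 1% after 0.5 h, against 118.6, 140.4 and 139.4 in air. Only the arrays of 1% oxygen for 2 h stood apart, with a growth of 1.49 ± 0.242 (SE; adjusted p = 0.0458 by limma).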

How the results depend on the processing

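With 2 or 3 arrays a group, calls near the threshold move with the settings. The growth was higher in 3 genes, in 1 with quantile normalization or a pseudocount of 1.5, and in 1 to 4 with single arrays left out. At 0.5 h 1 to 8 genes and at 2 h 31 to 48 were higher with single arrays left out, and 25 of the 46 were called in all 10 such fits. At 2 h 0 to 1 were lower with single arrays left out, 2 with quantile normalization, the dimmest 40% left out or the 10 arrays alone, and 1 with centring or no trend. Within 1% oxygen, 7 genes were higher after 2 h with a pseudocount of 1.5, and 3 to 9 with single arrays left out, with 0 to 1 lower. Without letter F, 3 genes passed in the growth (1 of the 3 above among them), 0 at 0.5 h and 23 at 2 h, and within 1% 4 were higher and 1 lower after 2 h.

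Same-letter arrays deviated together with r of 0.457 to 0.718 in 6 of 6 pairs at 0.5 h and -0.117 to 0.689 at 2 h, where 5 of 8 pairs exceeded 0.1. The letters were thus taken to pair the arrays at 0.5 h only. Different-letter pairs had r of -0.718 to 0.464 at 0.5 h (7 of 24 over 0.1) and -0.689 to 0.669 at 2 h (7 of 22). In a group of 2 arrays the deviations mirror each other, so the pairs are not independent. Within the 4 groups the only same-letter pair at 0.5 h was F with F (r = 0.463). With the letter as a replicate block, 6 genes were higher and 3 lower in the growth, 3 higher at 0.5 h, 145 higher and 79 lower at 2 h, and 32 higher and 19 lower after 2 h within 1%. With the block as a random effect the counts were 13 and 1 in the growth, 8 higher at 0.5 h, 151 and 71 at 2 h, and 41 and 17 within 1%. With a block within each duration they were 2 and 1 in the growth, 1 and 1 at 0.5 h, and 131 and 58 at 2 h, and changes between durations were not computed. Growth calls gained with the fixed or random block, at the lowest adjusted p, included AT5G44730 (0.00544), AT3G23170 (0.0334), AT1G23850 (0.0182) and, lower, AT1G69580 (0.0153).

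Among 61 named growth values the sign turned in 7 instances, none of them with a call: AT4G10270 (-0.241 to 0.8 with single arrays left out, -0.568 without letter F), ARL (-0.125 to 2.63, and -0.461), AT3G10040 (-0.0302 without letter F) and AT2G41980 (-0.0143 to 0.238). The cause was not tested.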

Other observations

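Among the 9233 probe sets that do not name 1 gene, 4 were higher at 1% oxygen after 0.5 h, and 46 were higher and 5 lower after 2 h. Names for them were not used here.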
